A study of Arabidopsis thaliana with 12 samples.

Results

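The genes described here are 9 genes of abscisic acid signalling in Arabidopsis thaliana leaves, picked by identifier from the 32678 genes of the deposited count table. One is a synthesis gene, NCED3 (AT3G14440). A set of 3 encodes negative regulators, the clade A protein phosphatases ABI1 (AT4G26080), ABI2 (AT5G57050) and HAB1 (AT1G72770). The other 5 are response genes, RD29A (AT5G52310), RD29B (AT5G52300), RAB18 (AT5G66400), KIN1 (AT5G15960) and COR15A (AT2G42540). All 9 were among the 18770 genes that passed the filter on low counts.

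Abscisic acid is a plant hormone of drought, cold and salt stress that also closes stomata. NCED3, a 9-cis-epoxycarotenoid dioxygenase, carries out the rate-limiting cleavage step of its synthesis under stress. In the absence of the hormone, the clade A phosphatases hold SnRK2 kinases inactive; receptors of the PYR/PYL family that have bound the hormone capture the phosphatases, and the released kinases phosphorylate ABF transcription factors. Target genes, including several of the phosphatases themselves, are then induced. In leaves, abscisic acid is known to act against salicylic acid immunity, the output that EDS1 promotes.

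Every library came from leaves of 4-week-old plants at 4 h after bacteria were infiltrated by syringe (OD600 0.005). The strain, Pst AvrRps4, is Pseudomonas syringae pv. tomato that injects the effector AvrRps4 into plant cells. The lines were eds1-2, a mutant in the immune regulator EDS1; R493A, which carries EDS1 with a substitution at that residue; w.tEDS1, which carries wild-type EDS1; and Col-0, the wild-type accession. Each line had 3 libraries, each made from RNA pooled over 4 plants. No uninfected or mock-treated leaves are among the 12 libraries, so induction by infection was not measured, and the labels used here do not give the background, promoter or number of transformed lines of R493A and w.tEDS1.

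The libraries held 19273912 to 24572145 counts assigned to genes. EDS1 (AT3G48090) averaged 3.94 ± 0.141 CPM (counts scaled to a common library size) in eds1-2, 24.7 ± 5.96 in R493A, 144 ± 45.9 in w.tEDS1 and 42.5 ± 25.9 in Col-0 (SD, n = 3 each). Col-0 replicates 1 and 2 stood apart from the other 10 libraries on the first principal component, which took 41.7% of the variance, at -62.9 and -92.6, while Col-0 replicate 3 lay at -0.307. These 2 libraries were also the only ones from lane 6 of the main sequencing run. Lane 7 was the lane with libraries of all 4 genotypes, 6 in total, and eds1-2 replicate 1 and R493A replicate 2 came from another run. Mesophyll markers were high in every library, at 19240 to 32543 CPM summed over 5 genes, and the 3 seed markers summed to at most 0.0785 CPM.

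The upstream sequences of 3 response genes are shown. Each holds 1 or both of the motifs through which abscisic acid and cold are known to reach these genes. The letters ACGTG form the core of the abscisic acid response element, bound by ABF factors, and the letters CCGAC form the core of the dehydration response element, bound by DREB and CBF factors. Each window is the 250 bases before the annotated start of the gene in TAIR10.1, read 5′ to 3′ on the gene's strand, and capitals mark either core on either strand.
RD29A: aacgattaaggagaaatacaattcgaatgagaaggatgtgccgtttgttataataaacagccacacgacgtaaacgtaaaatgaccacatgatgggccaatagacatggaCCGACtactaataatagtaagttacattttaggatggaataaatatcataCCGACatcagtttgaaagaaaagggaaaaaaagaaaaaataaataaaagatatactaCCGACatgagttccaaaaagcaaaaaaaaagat
RD29B: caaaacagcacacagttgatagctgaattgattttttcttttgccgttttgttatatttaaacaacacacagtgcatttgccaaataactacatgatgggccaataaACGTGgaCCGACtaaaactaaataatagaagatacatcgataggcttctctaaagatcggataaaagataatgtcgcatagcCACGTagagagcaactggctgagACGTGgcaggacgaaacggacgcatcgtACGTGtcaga
COR15A: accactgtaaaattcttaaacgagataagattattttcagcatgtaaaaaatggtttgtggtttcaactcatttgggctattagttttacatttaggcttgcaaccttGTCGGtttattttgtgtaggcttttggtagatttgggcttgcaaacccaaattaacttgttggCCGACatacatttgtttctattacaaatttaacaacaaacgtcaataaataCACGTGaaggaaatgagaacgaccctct
Sequence outside these windows, including that after the annotated start, was not searched, so a count of 0 holds for the window only. The RD29A window (chr5:21240467-21240716, plus strand) held 3 CCGAC cores and no ACGTG. The RD29B window (chr5:21236771-21237020, plus strand) held 4 ACGTG cores and 1 CCGAC, and 3 of the 4 extended to ACGTGNC, the longer form of the element. The COR15A window (chr2:17712331-17712580, minus strand) held 2 CCGAC cores and 2 ACGTG cores, which overlap on opposite strands in the palindrome CACGTG. RAB18 had 3 ACGTG cores, KIN1 had 1 and HAB1 had 1, while NCED3, ABI1 and ABI2 had neither core in this window. Of 27443 windows of the same length, 22.9% held ACGTG, 8.57% held ACGTGNC and 12% held CCGAC.

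None of the 9 genes differed between any pair of the 4 genotypes at an adjusted p under 0.05 in edgeR's quasi-likelihood test. Genotype took between 4.05% (KIN1) and 34.4% (COR15A) of the variance of their log2 levels, so most of it lay between libraries of 1 genotype. The median tested gene had 32.9%, so this was not particular to the 9 genes. COR15A was the gene whose 3 eds1-2 libraries all lay above the 3 Col-0 libraries. The clearest pattern in the 9 genes ran across genotypes: within each of the 4, the same library was the lowest for every one of them.

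NCED3 lies on chromosome 3 at 4831286 to 4834015 (TAIR10.1). Its level was 30.9, 41.1 and 92.0 CPM in eds1-2 replicates 1, 2 and 3. It was 46.8, 24.7 and 45.1 CPM in R493A and 45.8, 20.4 and 31.6 CPM in w.tEDS1, against 51.9, 118 and 26.3 CPM in Col-0. The 4 groups overlapped, and the highest and lowest Col-0 libraries differed by 4.50 times. Against Col-0, the log2 fold change of NCED3 was -0.26 in eds1-2 (SE 0.54, adjusted p = 0.801), -0.75 in R493A (SE 0.54, adjusted p = 0.476) and -1.01 in w.tEDS1 (SE 0.55, adjusted p = 0.293). The 95% interval of the last ran from -2.20 to 0.19.

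The phosphatases ABI1 (chromosome 4, 13219915 to 13222376), ABI2 (chromosome 5, 23087122 to 23089631) and HAB1 (chromosome 1, 27389948 to 27393327) bind the kinases in the absence of hormone and are themselves abscisic acid-induced. ABI1 had 161, 253 and 574 CPM in eds1-2. In R493A it had 336, 240 and 318 CPM, in w.tEDS1 362, 161 and 219 CPM, and in Col-0 363, 693 and 215 CPM. The lowest libraries were eds1-2 replicate 1 and w.tEDS1 replicate 2, the highest was Col-0 replicate 2, and all 4 groups overlapped. ABI2, the closest relative of ABI1 among the 9, had 19.2, 39.4 and 67.7 CPM in eds1-2. Its levels were 50.9, 43.5 and 52.6 CPM in R493A, 49.3, 19.1 and 34.4 CPM in w.tEDS1, and 63.4, 80.0 and 26.2 CPM in Col-0. The R493A libraries lay close together, inside the ranges of eds1-2 and Col-0. HAB1 had 61.5, 115 and 226 CPM in eds1-2, 155, 103 and 154 CPM in R493A and 163, 60.2 and 95.5 CPM in w.tEDS1. In Col-0, HAB1 had 188, 266 and 84.5 CPM. Its order of libraries within each genotype matched that of ABI1, with replicate 3 highest in eds1-2 and replicate 2 highest in Col-0.

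Means of the 3 phosphatases were lower in each of the 3 lines than in Col-0, and none of these differences passed the test. ABI1 averaged 329 ± 217 CPM in eds1-2, 298 ± 51.1 in R493A, 247 ± 103 in w.tEDS1 and 424 ± 244 in Col-0 (SD, n = 3 each). HAB1 averaged 134 ± 84.1, 138 ± 29.6 and 106 ± 52.1 CPM in eds1-2, R493A and w.tEDS1, against 180 ± 91.3 CPM in Col-0. ABI2 averaged 42.1 ± 24.3, 49.0 ± 4.86 and 34.3 ± 15.1 CPM in eds1-2, R493A and w.tEDS1, against 56.5 ± 27.5 CPM in Col-0. In w.tEDS1 against Col-0, the largest of these contrasts, the log2 fold changes were -0.78 for ABI1 (SE 0.50, adjusted p = 0.363), -0.72 for ABI2 (SE 0.48, adjusted p = 0.381) and -0.76 for HAB1 (SE 0.51, adjusted p = 0.388). The sign depended on which Col-0 libraries were used. In lane 7 alone, where Col-0 is replicate 3 only, the w.tEDS1 differences were 0.20, 0.39 and 0.33 for ABI1, ABI2 and HAB1. NCED3 turned in the same way, to 0.31 in lane 7. Replicate 3 was the lowest Col-0 library for all 9 genes. Used alone it lowers the Col-0 level, so the turn is no separate check of the sign.

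RD29A (chromosome 5, 21240717 to 21243644), a classic marker of drought and cold, was the most abundant of the 9. It had 1710, 3394 and 4332 CPM in eds1-2, 3619, 2585 and 4128 CPM in R493A, 3608, 1881 and 3607 CPM in w.tEDS1, and 2182, 3467 and 1993 CPM in Col-0. The Col-0 libraries lay within the range of the eds1-2 libraries, and all groups overlapped. Its log2 fold change against Col-0 was 0.30 in eds1-2 (SE 0.36, adjusted p = 0.643), 0.44 in R493A (SE 0.36, adjusted p = 0.543) and 0.25 in w.tEDS1 (SE 0.36, adjusted p = 0.709). RD29B, its tandem neighbour at 21237021 to 21239531, is known to depend more strictly on abscisic acid and was the least abundant of the 9. The coding sequences of the pair are 77.9% identical where they align. It had 1.92, 4.82 and 9.53 CPM in eds1-2, 4.87, 3.80 and 8.96 CPM in R493A, 4.25, 1.09 and 4.54 CPM in w.tEDS1, and 16.6, 4.48 and 1.44 CPM in Col-0. The Col-0 libraries alone spanned 11.5 times, and the highest and the lowest of them enclosed every eds1-2 and R493A library. The -1.20 log2 fold change of RD29B in w.tEDS1 against Col-0 had a 95% interval of -3.0 to 0.60 (adjusted p = 0.397). It was 1.18 in lane 7, where Col-0 is replicate 3 only, the lowest Col-0 library for RD29B. Without Col-0 replicate 1, the highest, it was 0.15 and not called.

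RAB18 (chromosome 5, 26518277 to 26519447) encodes a dehydrin, a protein that accumulates in cells losing water. It had 49.5, 105 and 97.8 CPM in eds1-2, 97.9, 70.3 and 99.7 CPM in R493A, 76.1, 60.2 and 83.4 CPM in w.tEDS1, and 132, 81.0 and 55.0 CPM in Col-0. Its 3 differences from Col-0 were close to 0 or slightly negative, at -0.09 in eds1-2, -0.00 in R493A and -0.29 in w.tEDS1 on the log2 scale (SE 0.33 in each line; adjusted p = 0.893 in eds1-2, 0.998 in R493A and 0.622 in w.tEDS1). These also depended on which Col-0 libraries were used. In lane 7, with the lowest Col-0 library alone, they were 0.92, 0.82 and 0.41 in eds1-2, R493A and w.tEDS1. Without Col-0 replicate 1, the highest, they were 0.32, 0.40 and 0.11. KIN1 (chromosome 5, 5209717 to 5210826) encodes a small cold- and abscisic acid-induced protein. It had 138, 332 and 244 CPM in eds1-2, 204, 153 and 376 CPM in R493A, 262.8, 106 and 229 CPM in w.tEDS1, and 266, 289 and 103 CPM in Col-0. The 4 groups overlapped, with the lowest value in Col-0 replicate 3 and the highest in R493A replicate 3. In KIN1 the share of variance between genotypes was the smallest of the 9, where the median tested gene had 32.9%. Its tandem copy KIN2 is 95% identical over 201 coding bases, with runs of up to 58 identical bases, so reads may be split between them. KIN1 stood at 0.0833 to 0.202 of the KIN2 count across libraries.

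COR15A (chromosome 2, 17710441 to 17712330) encodes a chloroplast protein that protects membranes in the cold. It had 1874, 2523 and 2291 CPM in eds1-2, 1621, 1264 and 2610 CPM in R493A and 2334, 1039 and 1893 CPM in w.tEDS1, against 1466, 1433 and 1183 CPM in Col-0. All 3 eds1-2 libraries were above all 3 Col-0 libraries, while R493A and w.tEDS1 each had 1 library inside or below the Col-0 range. COR15A averaged 2230 ± 329 CPM in eds1-2 and 1361 ± 155 CPM in Col-0 (SD, n = 3 each), a log2 fold change of 0.71 (SE 0.31, 95% interval 0.04 to 1.39). Its adjusted p was 0.197, and its unadjusted p of 0.0405 was the only one under 0.05 among the 9 genes in the 6 pairs in the fit over all 12 libraries. In the same contrast 10.2% of all tested genes had higher groups that did not overlap, and 22.9% had an unadjusted p under 0.05. The difference kept its sign under all 18 alternative settings, between 0.63 and 1.08. Groups that do not overlap leave little room for a change of sign, so this is no separate support. In lane 7, where each of these groups had 1 library, it was 1.08. That lane sets the highest eds1-2 library, at 2523 CPM, against the lowest Col-0 library, at 1183 CPM. COR15B, its tandem copy at 7 bases' distance with 83.8% identity over 420 coding bases, averaged 279 ± 114 CPM in eds1-2 and 171 ± 63.7 CPM in Col-0.

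**Figure D1:**
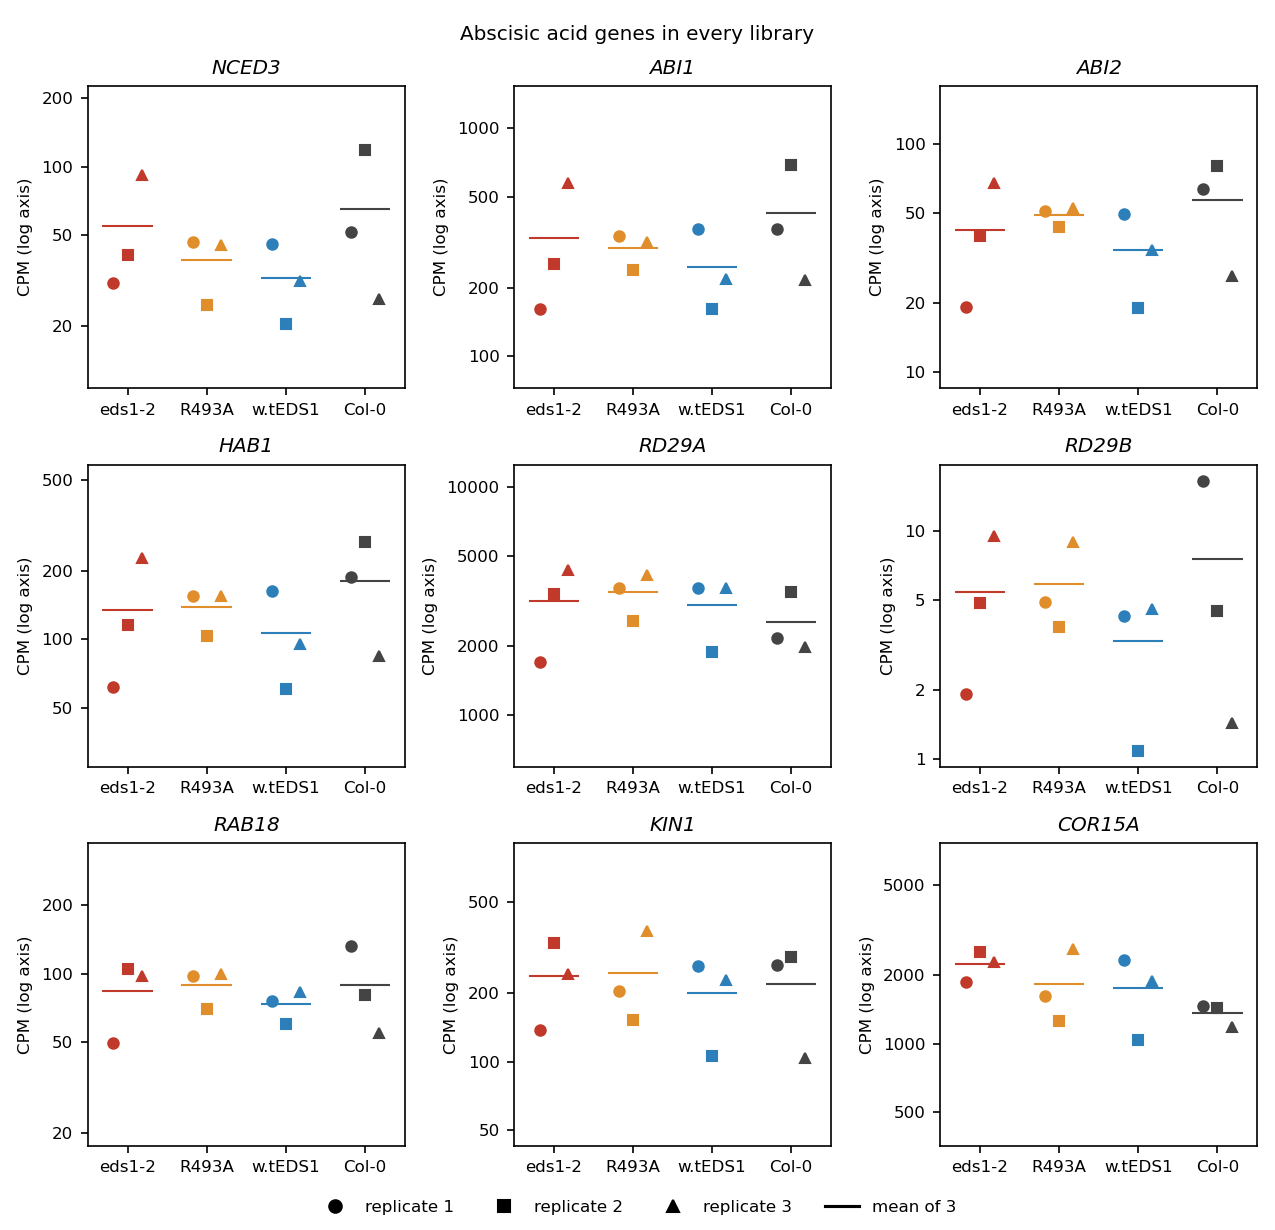
Levels of the 9 genes in every library, in CPM on a log axis, for eds1-2, R493A, w.tEDS1 and Col-0; symbols mark the replicate and lines the mean of 3. The groups overlap in each panel except for eds1-2 against Col-0 in COR15A, and replicate 1 of eds1-2, 2 of R493A, 2 of w.tEDS1 and 3 of Col-0 is the lowest of its group throughout.

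Per kilobase of exon, the median level over the 12 libraries was highest for RD29A, at 1288 CPM per kb, and COR15A, at 1103. KIN1 followed at 285, ABI1 at 132, RAB18 at 75.5 and HAB1 at 48.2 CPM per kb. ABI2 at 20.3 and NCED3 at 15.8 CPM per kb were neighbours whose ranges overlapped, and RD29B came last at 2.08. RD29A and COR15A, the top pair, also had overlapping ranges, 642 to 1627 against 656 to 1647 CPM per kb. The ratio of the highest to the lowest library was smallest for COR15A, at 2.51, and RD29A, at 2.53, and largest for RD29B, at 15.2.

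The 6 pairs of genotypes gave no call among the 9 genes. At an adjusted p under 0.05, edgeR called 2.04% of tested genes in eds1-2 against Col-0, 1.77% in R493A against Col-0 and 1.09% in w.tEDS1 against Col-0. It called 0.224% in R493A against w.tEDS1, 0.0373% in R493A against eds1-2 and 0.0746% in w.tEDS1 against eds1-2. With shares this small, 0 of 9 is near the background. At an unadjusted p under 0.05 there was 1 of 9 in eds1-2 against Col-0, where 22.9% of tested genes had one. There were 0 of 9 in R493A and in w.tEDS1 against Col-0, with 19.5% and 22.7% of tested genes, and 0 of 9 in R493A against w.tEDS1, R493A against eds1-2 and w.tEDS1 against eds1-2, with 4.60%, 2.15% and 2.66%. DESeq2 and limma-voom also called 0 of 9 in all 6. A test for any difference between the 4 genotypes gave adjusted p-values of 0.538 for COR15A to 0.977 for KIN1, with 1.48% of genes called and 0 of 9 members at an unadjusted p under 0.05, a level that 17.2% of tested genes reached. Groups that did not overlap, in either direction, were seen for 1 of 9 in eds1-2 against Col-0 (20.5% of tested genes). In the other 5 pairs there were 0 of 9, against 19.6% of tested genes in R493A against Col-0, 22.8% in w.tEDS1 against Col-0, 13.0% in R493A against w.tEDS1, 8.06% in R493A against eds1-2 and 7.82% in w.tEDS1 against eds1-2.

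Signs across the list differed between pairs of genotypes. In w.tEDS1 against eds1-2, all 9 log2 fold changes were negative, between -0.75 (NCED3) and -0.05 (RD29A), with a median of -0.34 against -0.01 over all tested genes. Leaving out 1 library turned 5 of the 9: without eds1-2 replicate 3, ABI1 was 0.25, ABI2 0.22, HAB1 0.26 and RD29A 0.24, and without eds1-2 replicate 2, KIN1 was 0.05; without w.tEDS1 replicate 2, RD29A was 0.20 and KIN1 0.05. In R493A against w.tEDS1, all 9 were positive, between 0.06 (COR15A) and 0.84 (RD29B), with a median of 0.29 against 0.01. Here 3 of the 9 turned: without w.tEDS1 replicate 2, RD29A was -0.07, KIN1 -0.01 and COR15A -0.21, and without R493A replicate 3, KIN1 was -0.17 and COR15A -0.29. In lane 7, COR15A was -0.13. The deviations of the 9 genes from their group means ran together over the 12 libraries (Pearson's r of 0.53 to 0.98 between pairs of genes, which share libraries), so 9 equal signs are not 9 separate observations. The contrasts of w.tEDS1 with eds1-2 and of R493A with w.tEDS1 share the w.tEDS1 libraries, so their signs are not separate evidence, and every adjusted p in them was above 0.99 in the fit over all 12 libraries. In R493A against eds1-2, 6 were positive and 3 negative, with a median of 0.04. Against Col-0 the medians were -0.26 in eds1-2, -0.21 in R493A and -0.72 in w.tEDS1. The 4 synthesis and phosphatase genes were negative in all 3 lines while RD29A and COR15A were positive in all 3. In lane 7 alone those 4 were also positive in all 3 lines. There the only Col-0 library was replicate 3, the lowest of Col-0 for all 9 genes. The 3 contrasts against Col-0 share the Col-0 libraries. A p that missed the threshold does not show that levels were equal: the 95% intervals of ABI1 reached from -1.45 to 0.72 in eds1-2 against Col-0.

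**Figure D2:**
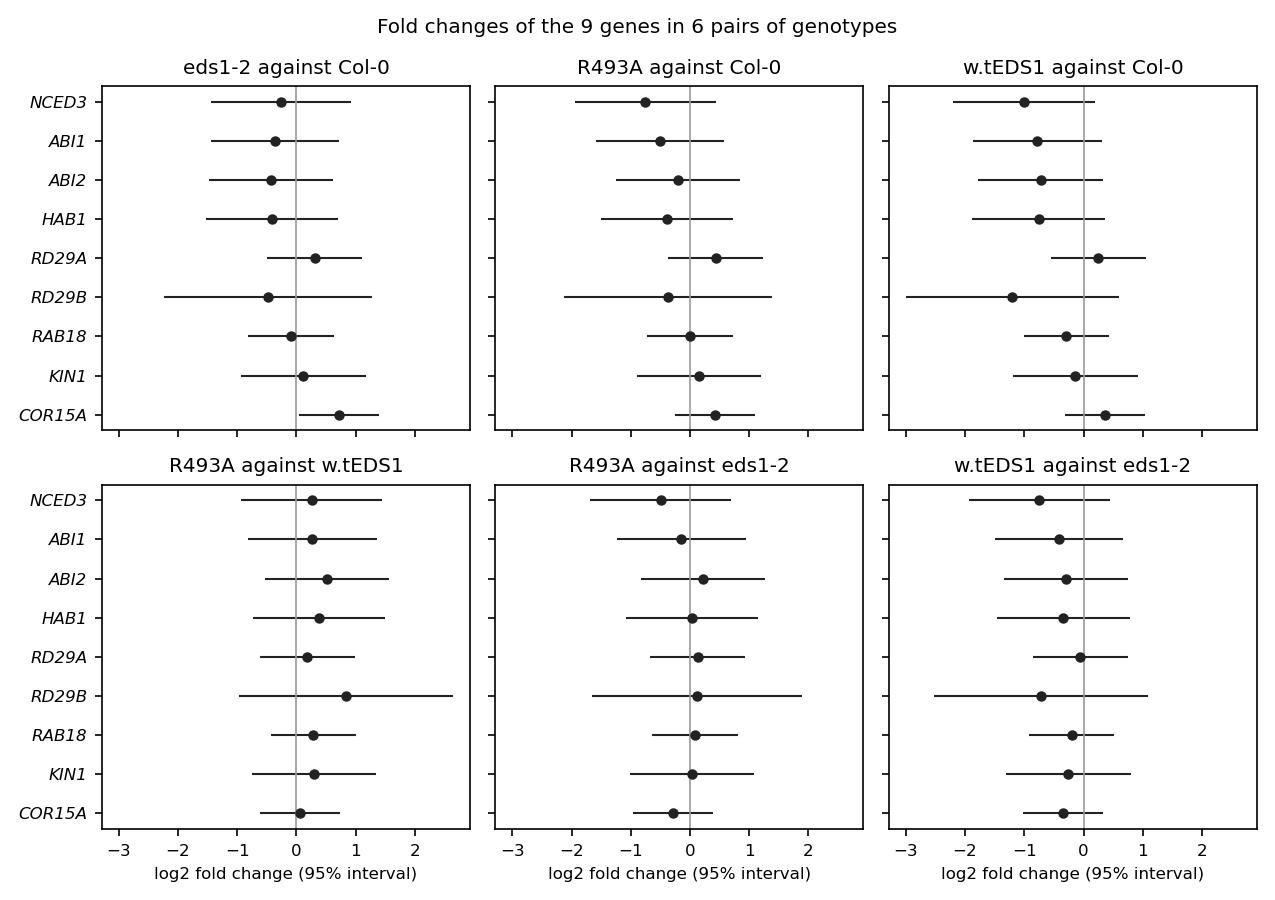
Log2 fold changes of the 9 genes in the 6 pairs of genotypes, with 95% intervals from edgeR's fit over 12 libraries. The interval crosses 0 for every gene and pair except COR15A in eds1-2 against Col-0, which runs from 0.04 to 1.39; RD29B has the widest intervals.

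The labels state no pairing of libraries. The replicate numbers were taken to pair R493A with w.tEDS1 because deviations in these same data correlated, at r = 0.105, 0.381 and 0.139 in pairs 1, 2 and 3. Replicate 2, with the highest r, was the lowest library of both groups for all 9 genes. The counts within pairs and the fit with a block are therefore no separate support for a difference. Within these pairs, NCED3, ABI2, RD29A, RD29B and RAB18 were higher in R493A in 3 of 3, and ABI1, HAB1, KIN1 and COR15A in 2 of 3, being lower in pair 1. With the number as a block in edgeR's fit to these 6 libraries alone, chosen after seeing the data and with 2 residual degrees of freedom, 0 of 9 genes were called (lowest adjusted p = 0.253, RAB18), against 1.02% of 18301 tested genes. At an unadjusted p under 0.05 there were 4 of 9 (ABI2, HAB1, RD29B and RAB18), where 12.3% of tested genes had one. The log2 fold changes were 0.60 for ABI2, 0.46 for HAB1, 0.91 for RD29B and 0.28 for RAB18. With the block in the fit over all 12 libraries, 15 genes were called in this pair, against 42 without it, and none of the 9.

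The effect of R493A relative to w.tEDS1 and that of eds1-2 relative to Col-0 can be set against each other without a shared library. The difference between these effects was called for none of the 9 genes, against 0.160% of all tested genes, and for 0 of 9 at an unadjusted p under 0.05, which 15.2% of tested genes had. It ranged from -0.65 for COR15A (adjusted p = 0.466) to 1.32 for RD29B (adjusted p = 0.573). EDS1 averaged 24.7 CPM in R493A and 144 CPM in w.tEDS1. Between these lines, the substitution and the level of EDS1 cannot be told apart.

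The spread within genotypes was large for these genes. The SD of log2 levels within groups was 0.78 for NCED3, 0.71 for ABI1 and ABI2, 0.75 for HAB1, 0.52 for RD29A, 0.47 for RAB18, 0.71 for KIN1 and 0.43 for COR15A, where the median tested gene had 0.268. RD29B reached 1.21, and 99.5% of tested genes had a smaller SD.

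This spread was shared. In eds1-2 replicate 1, R493A replicate 2, w.tEDS1 replicate 2 and Col-0 replicate 3, all 9 genes were at the lowest level of their group. The median deviation of the 9 genes from the group mean was -0.78, -0.39, -0.68 and -0.94 on the log2 scale in these 4 libraries. The highest was eds1-2 replicate 3, at 0.86, with all 9 genes above the group mean. The median deviation of all tested genes stayed within 0.02 of 0 in every library. The 4 libraries were picked from the 9 genes after their values were seen; of all tested genes, 2259 (12%) were lowest in the same 4 libraries and 2142 (11.4%) were highest in them. Of 58 other tested genes of the abscisic acid pathway, 28 (48.3%) were lowest in the same 4 and 1, the glucosidase gene BGLU18, was highest in them. By role, the 28 were 4 of 5 other phosphatases (not AHG1), 2 of 7 synthesis genes (ABA1 and ABA3), 1 of 6 genes of breakdown and conjugation, 2 of 9 receptors, 0 of 3 kinases, 7 of 9 transcription factors, 1 of 5 CBF and DREB factors and 11 of 14 other response genes.

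**Figure D3:**
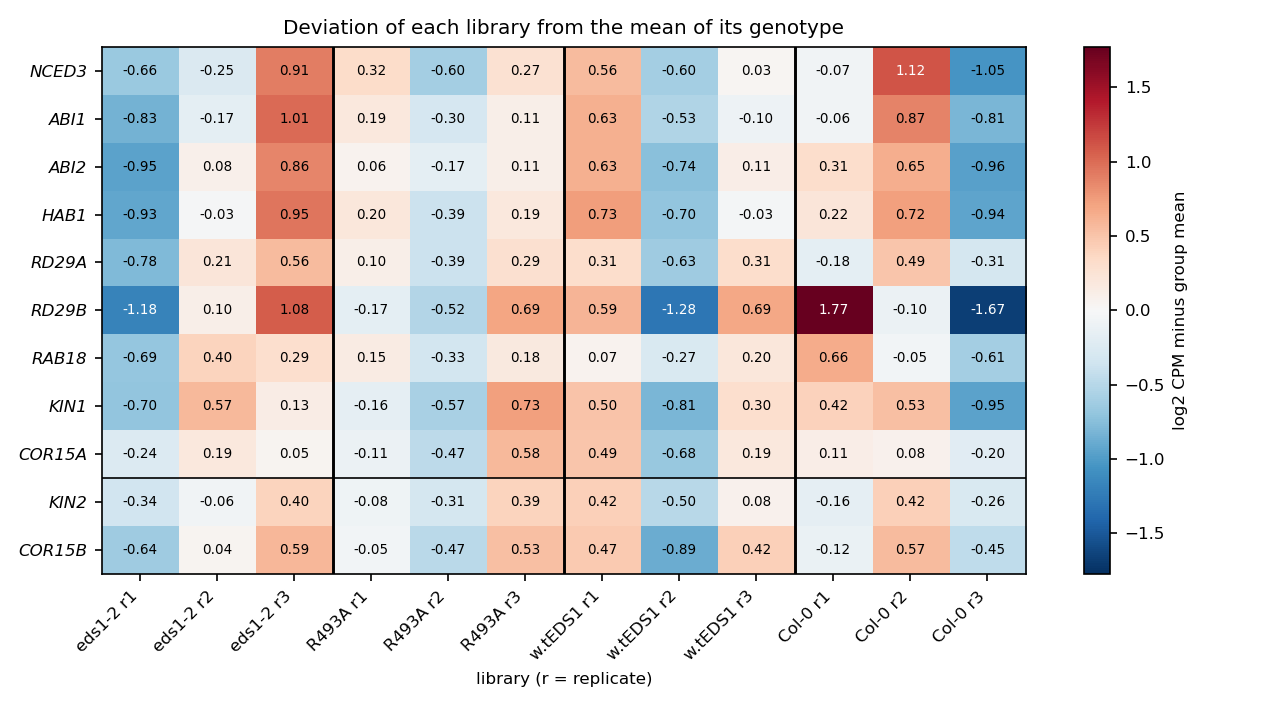
Deviation of log2 CPM from the mean of its genotype for the 9 genes and, under the line, the near copies KIN2 and COR15B, in each of 12 libraries. The columns of eds1-2 r1, R493A r2, w.tEDS1 r2 and Col-0 r3 are negative for all 9 genes, down to -1.67 for RD29B in Col-0 r3.

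Sums of cell type markers and the share of multi-mapped reads were also compared across the libraries. The summed level of 6 guard cell markers (KAT1, KAT2, MYB60, SLAC1, GORK and FAMA), all detected in every group, was 134, 133 and 74.7 CPM in eds1-2 replicates 1, 2 and 3. It was 109, 129 and 109 CPM in R493A, 87.7, 145 and 89.7 CPM in w.tEDS1, and 97.5, 61.1 and 138 CPM in Col-0. By this sum, the highest library of each genotype was the one where the 9 genes were lowest, in eds1-2 by 133.9 against 133.4 CPM. The single markers differed. MYB60 was highest in that library in all 4 genotypes, KAT1, KAT2, SLAC1 and FAMA in some of them, and GORK in none. Of all tested genes, 11.4% were highest in that library in all 4 genotypes. The sum of the 6 phloem markers was also highest of its group there, at 420 CPM in eds1-2 replicate 1, 383 in R493A replicate 2, 470 in w.tEDS1 replicate 2 and 391 in Col-0 replicate 3. SWEET11 and SWEET12 were highest there in all 4 genotypes, while SUC2, APL, SEOR1 and CALS7 were not. In eds1-2 replicate 1, SUC2 was the lowest of its group. The sum of the 5 mesophyll markers was highest of its group in the same library in 3 of the 4 genotypes, at 32543 CPM in eds1-2 replicate 1, 31506 in w.tEDS1 replicate 2 and 27197 in Col-0 replicate 3. RBCS1A and CA1 followed the sum in these 3 genotypes, while CAB1, RBCS1B and LHCB2.2 did not in all of them. Against Col-0, all 5 mesophyll markers had positive log2 fold changes in each of the 3 lines, with 1 called in each. The 3 contrasts share the Col-0 libraries, so these are not 3 separate observations. Of all tested genes, 2.04%, 1.77% and 1.09% were called in eds1-2, R493A and w.tEDS1 against Col-0. Reads mapped to several places made up 9.92%, 10.8% and 10.12% of the eds1-2 columns, 14.2%, 19.6% and 9.31% of R493A, 9.19%, 13.2% and 7.28% of w.tEDS1 and 9.14%, 9.52% and 14.3% of Col-0, highest in the low library in 3 of the 4 genotypes. Of the 4 libraries, eds1-2 replicate 1 and R493A replicate 2 were those of the second run, and the other 2 were from lane 7. The part of these measures in the shared pattern was not tested. In leaf RNA from whole tissue, fewer cells of a type and less RNA per cell cannot be told apart.

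**Figure D4:**
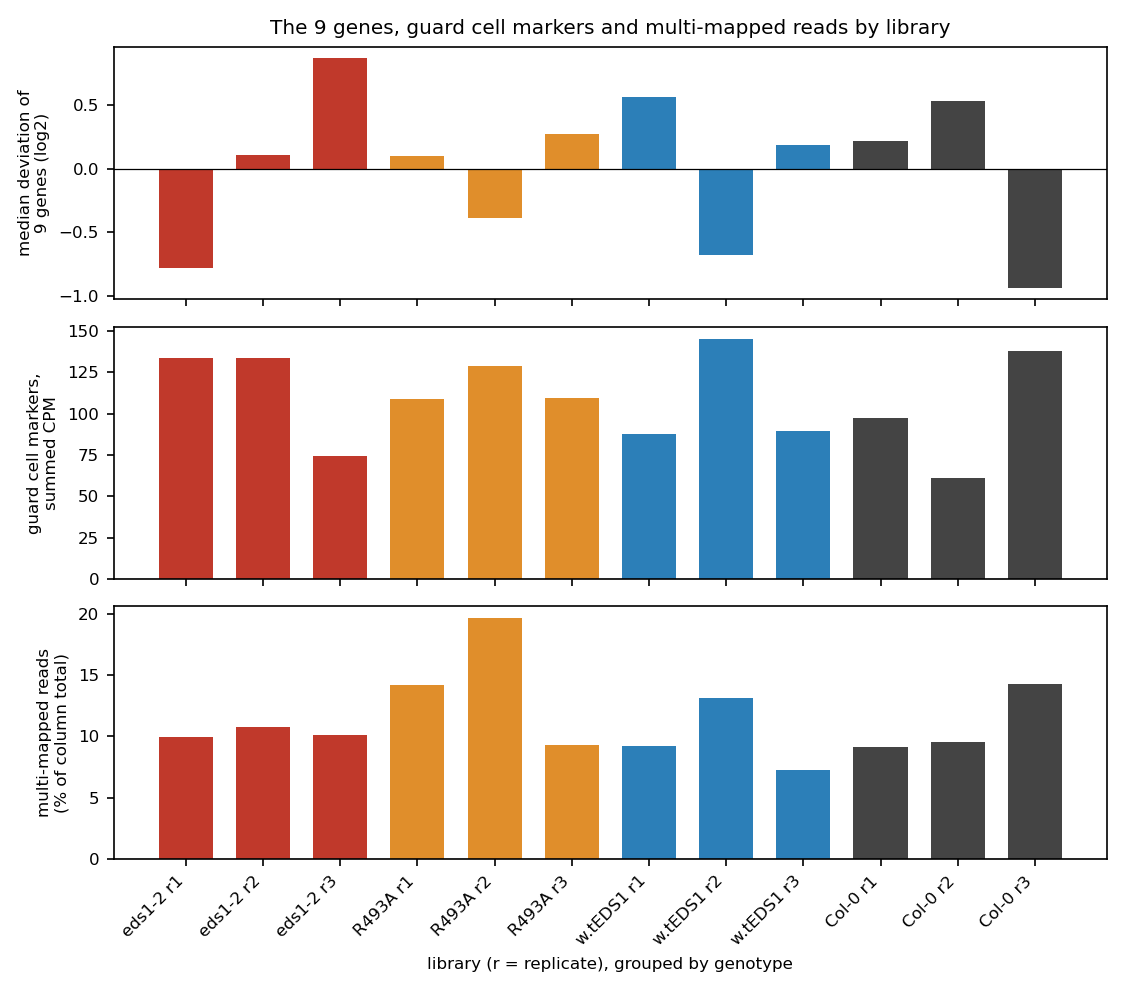
Bars by library, coloured by genotype: the median log2 deviation of the 9 genes from the group mean (top), the summed CPM of 6 guard cell markers (middle) and the percentage of each column made of multi-mapped reads (bottom). The 4 libraries with negative bars at the top, -0.39 to -0.94, have the highest guard cell marker sum of their genotype, in eds1-2 by a narrow margin.

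The genes most like the 9 over the 12 libraries were taken from 13594 genes averaging at least 5 CPM, by Pearson's r of log2 CPM, which here mixes differences between genotypes with the shared library pattern. ABI1 was most like RD26, an abscisic acid-induced NAC factor, at r = 0.993, followed by the NAC gene NAC032 at 0.986 and ACR1 at 0.985. ABI2 was most like HAB1, at 0.980, then ABR1, an AP2 factor that represses abscisic acid responses, at 0.977 and PP2CA, another clade A phosphatase, at 0.976. HAB1 was most like AT5G04250 at 0.987, AT1G69480 at 0.986 and PP2CA at 0.984. NCED3 was most like the thioredoxin gene TH9 at 0.972, AT3G49810 at 0.972 and AT5G60630 at 0.969. Of the genes in these lists, 3 of the 12 places nearest to NCED3 and the phosphatases were filled by clade A phosphatases. These were HAB1, itself a member of the 9, and PP2CA, which was listed for both ABI2 and HAB1.

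The response genes each had a different nearest gene. RD29A was most like GolS3, a galactinol synthase gene of the cold response, at 0.987, then AT1G51090 at 0.978 and AT2G45820 at 0.975. RAB18 was most like the late embryogenesis gene LEA4-5 at 0.954, TRM15 at 0.935 and RD20, a drought-induced caleosin gene, at 0.929. RD29B was most like CYP71B12 at 0.938, RD20 at 0.935 and AT3G28430 at 0.931. KIN1 was most like CIPK25 at 0.944, BETA-VPE at 0.938 and AT5G20170 at 0.936, and COR15A was most like GATL7 at 0.939, AT4G18740 at 0.919 and the cellulose synthase gene CESA1 at 0.905.

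The rest of the pathway was covered by a list of 69 further genes of synthesis, breakdown, receptors, phosphatases, kinases and transcription factors with other response genes, of which 58 were tested. SNRK2.2 (AT3G50500) was the 1 gene among them that passed the test, lower in each of the 3 lines than in Col-0. This is 1.72% of the 58, near the 2.04%, 1.77% and 1.09% of all tested genes called in eds1-2, R493A and w.tEDS1 against Col-0, so the count is no result about the pathway. The gene encodes a kinase that the phosphatases inhibit and that phosphorylates ABF factors. SNRK2.2 had 81.8, 74.7 and 79.0 CPM in eds1-2, 69.1, 75.9 and 76.2 CPM in R493A and 77.7, 79.1 and 72.2 CPM in w.tEDS1, against 145, 143 and 142 CPM in Col-0. The 9 libraries of the lines did not overlap with the 3 of Col-0, and Col-0 replicate 3, the library lowest for the 9 genes, lay close to the other 2 here. The log2 fold change was -0.87 in eds1-2 (SE 0.09, adjusted p = 0.000656), -0.96 in R493A (SE 0.09, adjusted p = 0.000251) and -0.91 in w.tEDS1 (SE 0.09, adjusted p = 0.000571). Against Col-0 the groups did not overlap in the lower direction for 10.3% of tested genes in eds1-2, 10.6% in R493A and 10.7% in w.tEDS1.

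SNRK2.2 lies on chromosome 3 at 18741444 to 18744174, 0.983 Mb from EDS1. The labels used here do not give the background of the lines, so sequence linked to EDS1 and an effect of EDS1 cannot be told apart. The line w.tEDS1, which carries wild-type EDS1, had the same low level as eds1-2 (log2 fold change -0.04, SE 0.09, adjusted p = 1.000). With sequencing lane as a covariate the calls were lost, at adjusted p = 0.199 in eds1-2, 0.113 in R493A and 0.0781 in w.tEDS1, while the log2 fold changes were -0.94, -1.03 and -0.90. In lane 7, where Col-0 had 1 library, the log2 fold changes were -0.94, -1.05 and -0.90, with adjusted p = 0.947, 0.623 and 0.316. The related kinase SNRK2.3 averaged 16.9 ± 1.20 CPM in eds1-2, 14.4 ± 1.01 in R493A, 19.3 ± 2.61 in w.tEDS1 and 17.3 ± 1.72 in Col-0, and SNRK2.6, the guard cell kinase OST1, averaged 19.1 ± 2.91 CPM in eds1-2, 18.03 ± 1.77 in R493A, 17.3 ± 0.732 in w.tEDS1 and 16.8 ± 5.19 in Col-0. Neither passed the test in any pair.

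The other 57 tested genes of the pathway gave no call in any pair. Over all 58, the median log2 fold change against Col-0 was -0.08 in eds1-2 (23 positive, 35 negative), -0.05 in R493A (27 positive, 31 negative) and -0.20 in w.tEDS1 (20 positive, 38 negative). Over all tested genes, the medians were -0.01 in eds1-2, 0.01 in R493A and -0.01 in w.tEDS1. At an unadjusted p under 0.05 there were 7, 8 and 12 of 58 in these 3 contrasts, where 22.9%, 19.5% and 22.7% of all tested genes had one. The 5 other clade A phosphatases that were tested (HAB2, AHG1, PP2CA, HAI1 and HAI2) had negative values in every line against Col-0, with medians of -0.61, -0.67 and -1.04 in eds1-2, R493A and w.tEDS1, and none was called. These contrasts share the Col-0 libraries, so the equal signs are not separate observations. In each genotype, 4 of these 5 were lowest in the same library as the 9 genes. Of 9 tested receptor genes, 6 were negative and 3 positive in each of the 3 contrasts. The 5 CBF and DREB factor genes, which act through CCGAC, had medians of 0.08, 0.17 and -0.04 in eds1-2, R493A and w.tEDS1 against Col-0. Among 14 other response genes, 6 were positive in eds1-2, 7 in R493A and 4 in w.tEDS1.

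**Figure D5:**
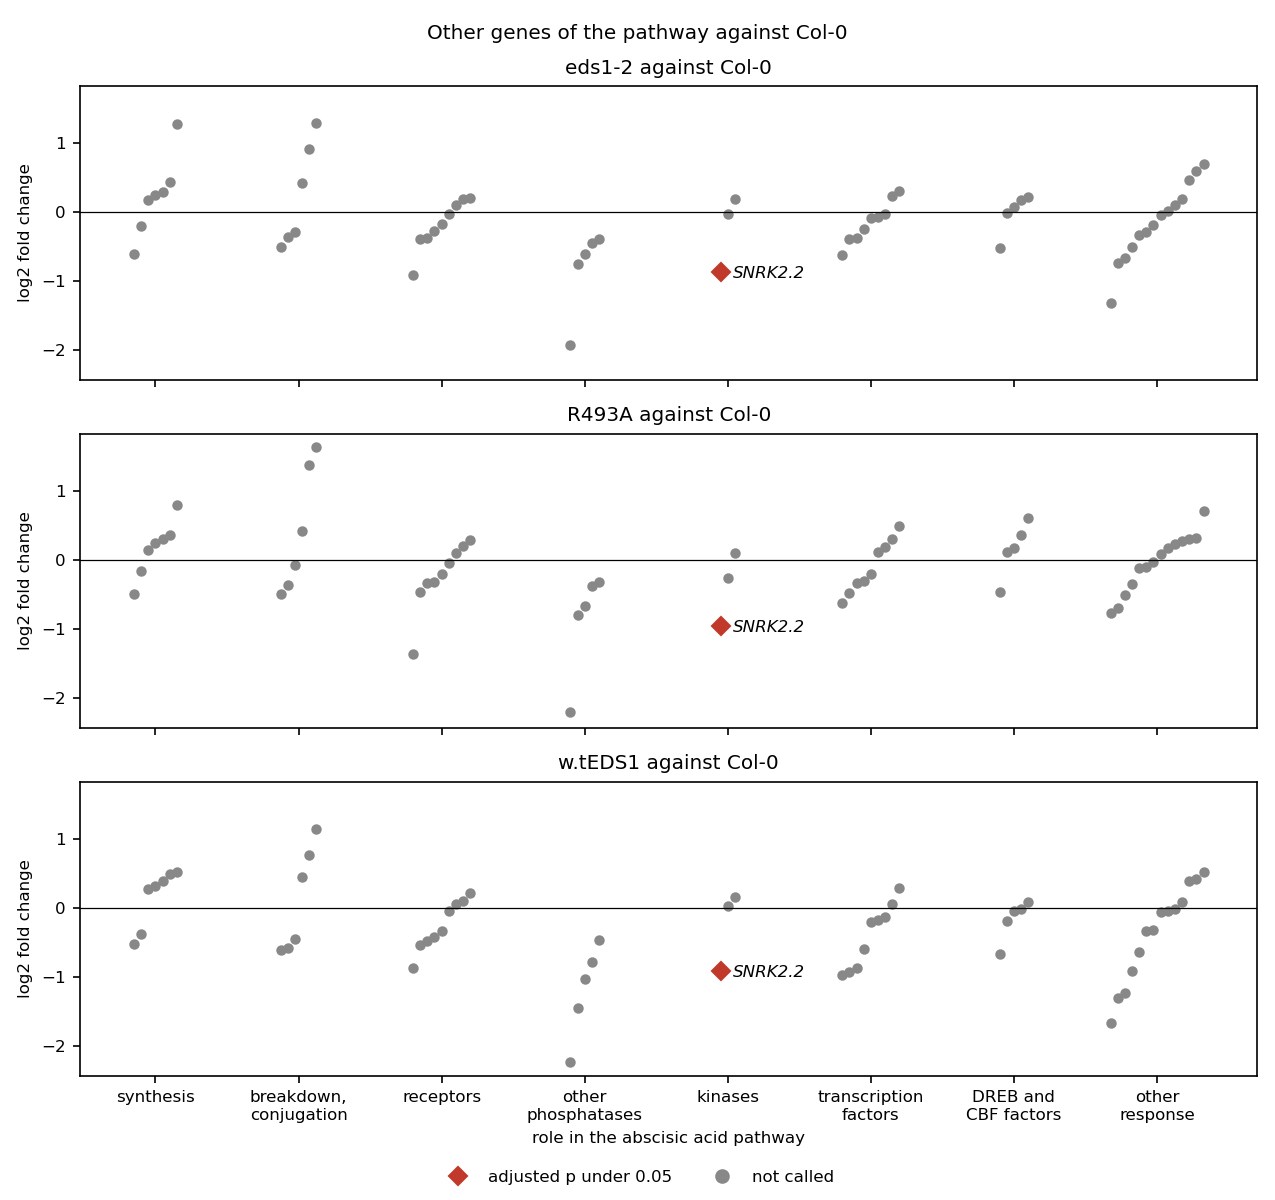
Log2 fold changes of the 58 other tested genes of the pathway against Col-0 in eds1-2, R493A and w.tEDS1, grouped by role; each point is 1 gene and diamonds mark an adjusted p under 0.05. SNRK2.2 is the 1 gene marked, at -0.87, -0.96 and -0.91, and all 5 other phosphatases lie below 0 in the 3 panels, which share the Col-0 libraries.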

How the data were processed

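Polyadenylated RNA from 12 leaf libraries was sequenced (TruSeq RNA v2, per the labels' protocols). TopHat2, HTSeq, limma and the TAIR10 build are named in the submitters' processing notes, with no versions or settings; strand use in counting is not given in the sources used here. The deposited table holds raw counts per gene for 32678 genes, with 5 HTSeq summary entries (9.69% to 22.9% of each column) that were left out of library sizes and tests. The members and all lists were chosen with earlier results of these data known.

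Counts were analysed with edgeR 4.0.16 in R 4.3.3: filterByExpr, TMM, quasi-likelihood fit over all 12 libraries with genotype as the only term, and Benjamini-Hochberg adjustment over all 18770 tested genes at 0.05. Levels are TMM-scaled CPM, fold changes use a prior count of 0.125 (log2 CPM, 2), and SE is the log2 fold change divided by the square root of F. Intervals and depths cover counting and replicate error of these libraries only; each library pooled 4 plants. Code was tested on simulated data. Alternatives used DESeq2 1.42.0, limma 3.58.1 voom, other scaling and filters, lanes, runs, and each library left out. Apart from the 9 members, genes named were those of the list that were called, the 3 nearest by correlation, near copies of members, and genes counted by role; BGLU18, SNRK2.3, SNRK2.6 and the genes named with the low libraries were added after their values were seen. Gene positions and sequences are from RefSeq TAIR10.1, in which 27998 of 32678 identifiers and all 9 members were found. Same-numbered libraries correlated at -0.509 to 0.381 in their deviations, above 0.1 in all 3 pairs of numbers only for R493A and w.tEDS1, so the numbers were taken to pair only those 2 groups.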

Additional observations from a re-analysis of the deposited data

Results flagged for a closer look

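SNRK2.2, a kinase gene of the pathway list, had an effect of R493A relative to w.tEDS1 that differed from that of eds1-2 relative to Col-0. The first effect was -0.05 and the second -0.87 on the log2 scale, and the difference was 0.82 (SE 0.13, edgeR adjusted p = 0.0321), where 0.160% of tested genes were called. Its means were 78.5 CPM in eds1-2, 73.7 in R493A and 76.3 in w.tEDS1, against 143 in Col-0. The difference therefore restates the higher level of Col-0, since w.tEDS1 was as low as eds1-2. The difference was between 0.77 and 0.89 under 23 alternative settings, of which 17 lost the call, with adjusted p-values up to 0.890. None of the 9 members met this criterion; single libraries within groups of 3 were not tested as outliers.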

How the results depend on the processing

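Under every alternative run, DESeq2 and limma-voom included, 0 of the 9 members were called in the 6 pairs, in the test of any difference and in the test of the difference of effects. The lowest adjusted p was 0.0898, for COR15A in eds1-2 against Col-0 with voom quality weights, and over 18 alternatives it reached 0.999. The replicate block gave 0 calls among the members in every pair; over all genes it gave 132 calls against 383 without it in eds1-2 against Col-0, 159 against 333 in R493A against Col-0, 87 against 204 in w.tEDS1 against Col-0, 15 against 42 in R493A against w.tEDS1, 4 against 7 in R493A against eds1-2 and 6 against 14 in w.tEDS1 against eds1-2. Fitted in the R493A and w.tEDS1 libraries alone, it gave 186 against 75 without it. SNRK2.2 also lost its call against Col-0 in the 6 libraries of the compared groups alone, at adjusted p = 0.0593 in eds1-2 and 0.0514 in w.tEDS1. Of 1265 values of members and SNRK2.2 under alternatives, 133 turned in sign, and none of those had been called. All that turned were fold changes of members. The 1265 also hold p-values of the test of any difference, which have no sign, so the share of fold changes that turned was larger. Lane 7, and the fit without Col-0 replicates 1 and 2, leave Col-0 with replicate 3 alone, which is then assumed to vary like the other groups. Replicate 3 was the lowest Col-0 library for all 9 members, so the Col-0 level they are set against is lower there. For the other settings the cause was not tested.

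With sequencing lane as a covariate, the log2 fold changes that turned were NCED3 0.98, ABI1 0.58, ABI2 0.78, HAB1 0.71, RD29B 1.76, RAB18 0.90 in eds1-2 against Col-0, and HAB1 -0.060, RD29B -0.039, RAB18 -0.037, KIN1 -0.039 in R493A against eds1-2, and NCED3 0.31, ABI1 0.20, ABI2 0.38, HAB1 0.33, RD29B 1.18, RAB18 0.41, KIN1 0.95 in w.tEDS1 against Col-0, and NCED3 0.56, ABI1 0.36, ABI2 0.78, HAB1 0.65, RD29B 1.73, RAB18 0.87 in R493A against Col-0. In lane 7 alone, the log2 fold changes that turned were NCED3 0.63, ABI1 0.22, ABI2 0.57, HAB1 0.43, RD29B 1.73, RAB18 0.92 in eds1-2 against Col-0, and COR15A -0.13 in R493A against w.tEDS1, and NCED3 0.19, ABI1 0.41, RAB18 -0.10, KIN1 -0.70 in R493A against eds1-2, and NCED3 0.31, ABI1 0.20, ABI2 0.39, HAB1 0.33, RD29B 1.18, RAB18 0.41, KIN1 0.95 in w.tEDS1 against Col-0, and NCED3 0.82, ABI1 0.63, ABI2 0.94, HAB1 0.87, RD29B 1.74, RAB18 0.82 in R493A against Col-0. Without Col-0 replicates 1 and 2, chosen after seeing the data, the log2 fold changes that turned were NCED3 1.07, ABI1 0.63, ABI2 0.70, HAB1 0.69, RD29B 1.92, RAB18 0.63 in eds1-2 against Col-0, and NCED3 0.32, ABI1 0.21, ABI2 0.39, HAB1 0.34, RD29B 1.19, RAB18 0.42, KIN1 0.95 in w.tEDS1 against Col-0, and NCED3 0.57, ABI1 0.48, ABI2 0.91, HAB1 0.71, RD29B 2.03, RAB18 0.71 in R493A against Col-0. In the main run alone, the log2 fold changes that turned were NCED3 0.031, RAB18 0.19 in eds1-2 against Col-0, and ABI2 -0.049, HAB1 -0.14, RD29B -0.054, RAB18 -0.041 in R493A against eds1-2, and RAB18 0.15 in R493A against Col-0. With sequencing run as a covariate, the log2 fold changes that turned were RAB18 0.094 in eds1-2 against Col-0, and ABI2 0.084, RD29B 0.035, RAB18 0.24 in R493A against Col-0. With limma-voom, the log2 fold changes that turned were ABI1 0.035 in R493A against eds1-2, and RD29B 0.12, RAB18 0.080 in R493A against Col-0. With voom quality weights, chosen after seeing the data, the log2 fold changes that turned were RD29A 0.0052 in w.tEDS1 against eds1-2, and ABI1 0.18, RAB18 -0.062, KIN1 -0.23 in R493A against eds1-2. With the replicate block, the log2 fold changes that turned were RAB18 0.0010 in R493A against Col-0.

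With 1 library left out at a time, the members that turned for any library had these ranges of log2 fold change. In eds1-2 against Col-0 they were NCED3 -0.85 to 0.48, ABI1 -1.02 to 0.19, RD29B -1.16 to 0.88, RAB18 -0.33 to 0.32, KIN1 -0.22 to 0.40. In w.tEDS1 against eds1-2 they were ABI1 -0.81 to 0.25, ABI2 -0.66 to 0.22, HAB1 -0.80 to 0.26, RD29A -0.35 to 0.24, KIN1 -0.53 to 0.053. In R493A against w.tEDS1 they were RD29A -0.066 to 0.35, KIN1 -0.17 to 0.55, COR15A -0.29 to 0.33. In R493A against eds1-2 they were NCED3 -0.78 to 0.11, ABI1 -0.48 to 0.53, ABI2 -0.13 to 0.74, HAB1 -0.32 to 0.64, RD29A -0.17 to 0.43, RD29B -0.32 to 0.80, RAB18 -0.19 to 0.26, KIN1 -0.42 to 0.34. In w.tEDS1 against Col-0 they were RD29B -1.68 to 0.15, RAB18 -0.53 to 0.11, KIN1 -0.47 to 0.16. In R493A against Col-0 they were ABI1 -0.82 to 0.039, ABI2 -0.55 to 0.12, HAB1 -0.72 to 0.012, RD29B -0.84 to 0.99, RAB18 -0.25 to 0.40, KIN1 -0.30 to 0.41.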

Other observations

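BGLU18, which encodes a glucosidase known to release abscisic acid from its glucose ester, ran against the 9 genes in the libraries where they were lowest; it was chosen for description after its values were seen. It had 416, 249.8 and 252 CPM in eds1-2, 336, 514 and 422 CPM in R493A and 308, 365 and 159.8 CPM in w.tEDS1, against 85.5, 152 and 247 CPM in Col-0. The highest library of each genotype was the one lowest for the 9 genes, as it was for 11.4% of all tested genes. Its log2 fold change in R493A against Col-0 was 1.39 (SE 0.39, edgeR adjusted p = 0.0938), and in eds1-2 against Col-0 it was 0.92 (SE 0.39, adjusted p = 0.190). In both contrasts the groups did not overlap, in eds1-2 by 249.8 CPM against 247 CPM in the nearest libraries; groups did not overlap in either direction for 19.6% of all tested genes in R493A against Col-0 and 20.5% in eds1-2 against Col-0. Neither passed the test.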
